A study of Mus musculus with 12 samples.

Results

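The genes described here were Cxcl1, Cxcl2, Cxcl3, Cxcl5, Ppbp, Cxcr2, Csf3 and Csf3r, the chemokines that act on neutrophils, their receptor, and granulocyte colony stimulating factor (G-CSF) with its receptor. They were chosen by name, as 8 of the 55401 genes of the expression table, and all 8 were among the 15504 genes that passed the filter on low values (1 TPM or more in 3 or more of the libraries). TPM is the share of a gene, per length, in a library brought to a total that is the same for every library, so levels of different genes were compared on this scale.

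RNA was measured in bulk in 12 orthotopic 4T1 tumors, a mouse mammary carcinoma line grown in Balb/c mice, with 3 tumors and 1 library each for control IgG (an IgG1-Fc isotype), recombinant IL-10-Fc, an antibody to CSF1R (aCSF1R) and BF10. BF10 is that antibody with interleukin-10 fused to it, and per the study's methods the interleukin-10 is human. Dosing began at a tumor volume of 100 mm3, for 6 doses by the sample labels and 4 by the series description. All groups carried the same tumor line and no altered allele, the methods give an age of 6 to 8 weeks for the mice as bought, and nothing beyond the labels says that the tumors of a group came from separate mice, so p-values measure the spread between these samples.

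CXCL1, CXCL2, CXCL3, CXCL5 and PPBP are CXC chemokines that bind the receptor CXCR2 on neutrophils and draw these cells out of the bone marrow and into inflamed tissue. G-CSF, the product of Csf3, drives the growth of neutrophils from their precursors through its receptor on cells of that lineage, the product of Csf3r. 4T1 tumors are known for making G-CSF and for the large number of neutrophils in the mice that carry them.

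The 5 ligand genes lie on the plus strand of chromosome 5 (GRCm38), in a cluster that also holds Pf4 and Cxcl15 and spans 146579 bases from 90759360 to 90905938. Their order is Cxcl5 (90759360 to 90761624), Ppbp (90768518 to 90770063), Pf4, Cxcl3 (90786103 to 90789600), Cxcl15, Cxcl1 (90891241 to 90893115) and Cxcl2 (90903871 to 90905938). Cxcr2 lies on chromosome 1 (74153989 to 74161246), Csf3 on chromosome 11 (98701263 to 98703629) and Csf3r on chromosome 4 (126024550 to 126044440). The values were counted over whole transcripts, so each one covers the exons of its gene.

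The stretch upstream of the start is shown for 4 of the ligand genes, as these lie in 1 cluster and differ in their levels. The sequences are from RefSeq (GRCm38.p6), which held 6 of the 8 genes; they are written 5′ to 3′ on the plus strand, end before the earlier of the RefSeq and GENCODE starts, and have in capitals GGGAATTTCCC, the longest run of letters shared by at least 3 of the ligand genes' stretches of 120 bases. It has the form of a site of the transcription factor NF-kB.
Cxcl1, chr5:90891125-90891240: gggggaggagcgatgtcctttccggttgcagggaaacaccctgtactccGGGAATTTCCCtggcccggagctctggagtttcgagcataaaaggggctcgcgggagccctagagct
Cxcl2, chr5:90903779-90903870: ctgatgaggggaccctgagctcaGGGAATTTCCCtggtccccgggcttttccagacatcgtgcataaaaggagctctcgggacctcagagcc
Cxcl3, chr5:90785981-90786100: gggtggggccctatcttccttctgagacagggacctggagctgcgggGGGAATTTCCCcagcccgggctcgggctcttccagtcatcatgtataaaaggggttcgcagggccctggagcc
Ppbp, chr5:90768398-90768517: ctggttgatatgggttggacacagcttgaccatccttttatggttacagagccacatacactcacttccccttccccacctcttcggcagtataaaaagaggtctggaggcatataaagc

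In windows of 250 bases before to 50 bases after the RefSeq start, this run of letters, searched on both strands, had its first base at -71 in Cxcl1, -97 in Cxcl2 and -73 in Cxcl3, the genes it was taken from. Ppbp, Cxcr2 and Csf3r held no match. Of all 32851 promoter windows, 14 (0.0426%) held it. A match is a run of letters only, and binding was not measured.

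The libraries fell into 2 sets by the sum of their FPKM values, which was 782919 to 921581 in 5 libraries (control replicates 4 and 7, IL-10-Fc replicate 7, aCSF1R replicate 8 and BF10 replicate 6, called higher-sum) and 609695 to 648413 in the other 7 (lower-sum). The control group had 2 higher-sum libraries and each treated group 1. Mitochondrial genes took 5.9 to 9.26% of the TPM in the higher-sum and 3.14 to 3.96% in the lower-sum libraries, and ribosomal protein genes 21.3 to 26.1% and 12.9 to 15.5%. All tested genes had a median log2 difference from control of 0.24 in aCSF1R, 0.32 in BF10 and 0.35 in IL-10-Fc. BF10 replicate 3 stood apart in its neutrophil genes, as the 19 neutrophil markers listed summed to a TPM of 21144 in it and to 1394 to 4205 in the other 11 libraries. S100a8 and S100a9 gave 6522 and 9368 of its sum. Of the 19 markers 18 passed the filter. Estimated from the step that 1 read makes in the values of short genes, the depth was 30900000 to 35600000 reads per library.

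No gene of the axis passed the threshold (limma, Benjamini-Hochberg adjusted p below 0.05 over all tested genes and a 1.5-fold difference) in any of the 6 comparisons between groups, nor in the test of any difference between the 4 groups. The same held in a model with the library set as a term. Of all tested genes the share that passed was 0% for BF10 against control, 0.00645% for IL-10-Fc against control, 0.568% for aCSF1R against control, 0% for BF10 against IL-10-Fc, 0.735% for BF10 against aCSF1R and 0.542% for IL-10-Fc against aCSF1R, and 0.522% in the test of any difference. With the set term the shares were, in the same order, 0.00645%, 0.0258%, 2.01%, 0%, 2.82%, 2.13% and 2.12%. At an unadjusted p below 0.05, limma gave 2 of the 8 genes for aCSF1R against control (Cxcl1 and Ppbp), 1 each for IL-10-Fc and BF10 against control (Cxcl3 in both), 2 for BF10 against aCSF1R (Csf3 and Cxcl1), 2 for IL-10-Fc against aCSF1R (Cxcl1 and Ppbp), 0 for BF10 against IL-10-Fc and 1 in the test of any difference (Ppbp). At the same cutoff the share of all tested genes was 3.46% for aCSF1R, 1.44% for IL-10-Fc and 1.51% for BF10 against control, 4.26% for BF10 and 3.56% for IL-10-Fc against aCSF1R, 0.271% for BF10 against IL-10-Fc and 3% in the test of any difference. The comparisons with control share the 3 control libraries, and those with aCSF1R share its 3 libraries.

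**Figure D1:**
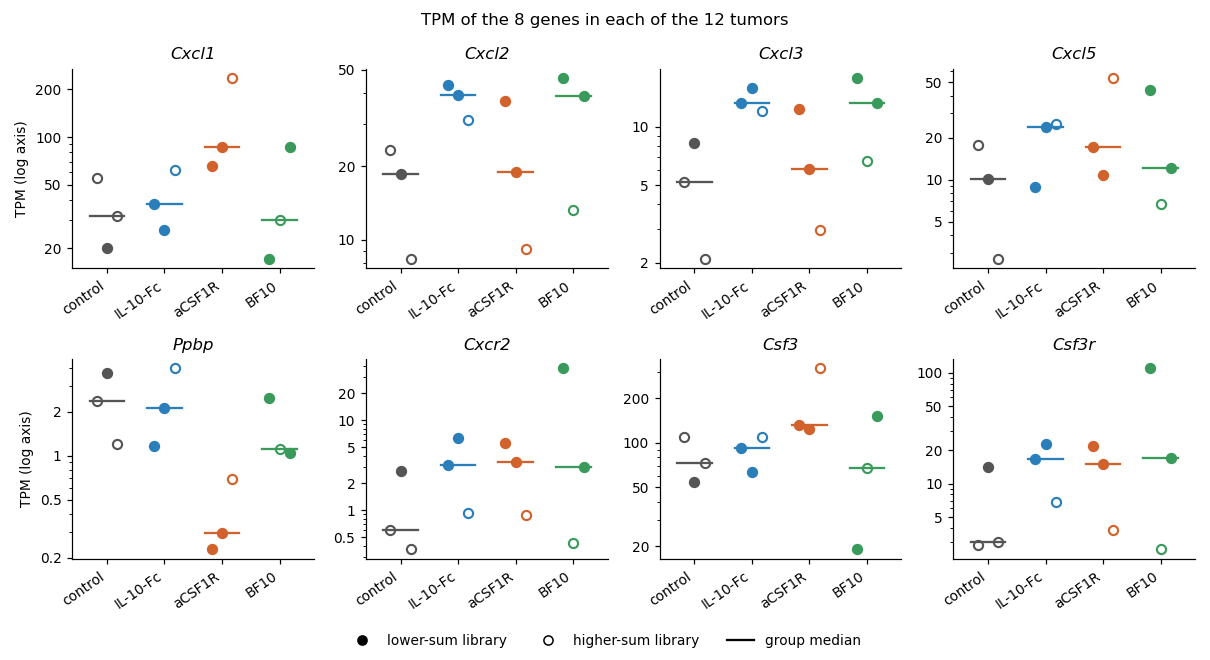
TPM on a log axis of the 8 genes in each of the 12 tumors, by group; a point is 1 library, filled where the library is lower-sum and open where it is higher-sum, and the line is the group median. The 3 aCSF1R tumors lie above the control tumors for Cxcl1 and Csf3 and below them for Ppbp, and BF10 replicate 3 lies far above all other tumors for Cxcr2 and Csf3r.

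Cxcl1, the chemokine first known as KC, had its highest levels in the aCSF1R tumors. The TPM was 66.0, 86.5 and 237 in aCSF1R replicates 4, 6 and 8, and 55.6, 19.99 and 31.7 in control replicates 4, 5 and 7. It was 37.9, 26.0 and 61.7 in IL-10-Fc replicates 2, 4 and 7, and 30.0 and 86.1 in BF10 replicates 6 and 7. BF10 replicate 3 had 17.1, the lowest of the 12 libraries, and aCSF1R replicate 8, a higher-sum library, the highest. The aCSF1R values did not overlap those of control or of IL-10-Fc, while BF10 overlapped every other group.

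The log2 difference of Cxcl1 between aCSF1R and control was 1.72 (SE 0.65, 95% interval 0.29 to 3.15), or 1.49 above the median of all genes, and limma's adjusted p was 0.893. In a model that also has a term for the library set it was 1.99 (SE 0.55) with a limma adjusted p of 0.146. Leaving out 1 library at a time kept the difference between 1.18 and 2.09. Against aCSF1R, Cxcl1 had a log2 difference of -1.61 in BF10 and -1.47 in IL-10-Fc, both at an SE of 0.65, with limma adjusted p of 0.937 and 1. Without aCSF1R replicate 8 these were -1.07 and -0.92. Between BF10 and control it was 0.11, which was below the median of all genes.

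Cxcl2 and Cxcl3, both made by macrophages, neutrophils and tumor cells in inflamed tissue, had their highest group means in IL-10-Fc. Cxcl2 had a TPM of 43.2, 39.5 and 31.2 in IL-10-Fc replicates 2, 4 and 7, and of 23.3, 18.7 and 8.33 in control replicates 4, 5 and 7. In BF10 replicates 3, 6 and 7 it was 46.3, 13.3 and 39.1, and in aCSF1R replicates 4, 6 and 8 it was 37.3, 18.9 and 9.13. In each treated group the lowest value was that of the higher-sum library. All IL-10-Fc values lay above all control values, and the BF10 and aCSF1R values overlapped both.

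Cxcl3 followed the same order of groups at lower levels. Its TPM was 13.2, 15.9 and 12.01 in IL-10-Fc replicates 2, 4 and 7, and 5.204, 8.29 and 2.10 in control replicates 4, 5 and 7. It was 17.9, 6.64 and 13.3 in BF10 replicates 3, 6 and 7, and 12.3, 6.07 and 2.94 in aCSF1R replicates 4, 6 and 8. Here too the IL-10-Fc values did not overlap those of control, and BF10 replicate 3 was the highest library.

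Between IL-10-Fc and control the log2 difference was 1.38 for Cxcl3 (SE 0.53, 95% interval 0.20 to 2.55) and 1.23 for Cxcl2 (SE 0.57, 95% interval -0.039 to 2.50), each with a limma adjusted p of 0.738. Relative to the median of all genes these were 1.02 and 0.88. With the library set as a term they were 1.06 and 0.91, with a limma adjusted p of 0.942 for both. Between BF10 and control, Cxcl3 differed by 1.18 (SE 0.53, limma adjusted p 0.788) and Cxcl2 by 0.87 (SE 0.57, the same adjusted p). Without control replicate 7 these were 0.75 and 0.46, and without BF10 replicate 3 they were 0.89 and 0.54. The difference of Cxcl2 between IL-10-Fc and control was 0.82 without control replicate 7. Between aCSF1R and control the differences were 0.35 and 0.26, and with the set as a term 0.041 and -0.057.

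The Cxcl2 and Cxcl3 transcripts share 101 distinct stretches of 75 bases, the length of a read, which is 4.57% of those of Cxcl2 and 2.78% of those of Cxcl3. The split of reads between this pair is uncertain to that extent. Cxcl1, Cxcl5 and Ppbp share no such stretch with the other ligands.

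Cxcl5, a chemokine made mainly by epithelial cells, platelets and some macrophages, varied widely within each group. Its TPM was 17.7, 10.1 and 2.69 in control replicates 4, 5 and 7, and 8.79, 23.7 and 25.2 in IL-10-Fc replicates 2, 4 and 7. It was 17.3, 10.9 and 54.1 in aCSF1R replicates 4, 6 and 8, and 44.0, 6.73 and 12.2 in BF10 replicates 3, 6 and 7. The lowest and the highest library differed 20.1-fold, and no pair of groups was free of overlap. The largest group difference was 1.32 on the log2 scale for aCSF1R against control (SE 0.82, limma adjusted p 0.893), and it was 0.69 without aCSF1R replicate 8 and 0.66 without control replicate 7.

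Ppbp, whose product is stored in the granules of platelets, was the ligand gene with the lowest TPM, and its lowest values were those of aCSF1R. Its TPM was 0.23, 0.30 and 0.69 in aCSF1R replicates 4, 6 and 8, and 2.38, 3.68 and 1.21 in control replicates 4, 5 and 7. It was 1.16, 2.13 and 3.97 in IL-10-Fc replicates 2, 4 and 7, and 2.47, 1.11 and 1.04 in BF10 replicates 3, 6 and 7. Every aCSF1R library lay below the other 9 libraries. The aCSF1R values rest on an estimated 5.01, 6.19 and 19.9 reads, against 24.1 to 106 in the other 9 libraries, so counting error alone is large at this level.

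The log2 difference of Ppbp between aCSF1R and control was -1.23 (SE 0.38, 95% interval -2.07 to -0.39), with an unadjusted p of 0.00807 and an adjusted p of 0.532 by limma. IL-10-Fc lay 1.21 above aCSF1R (SE 0.38, limma adjusted p 0.600) and BF10 lay 0.82 above it (SE 0.38, limma adjusted p 1). With the library set as a term the difference from control was -1.21 at a limma adjusted p of 0.225. A pseudocount of 1 understates fold changes at such levels, and the ratio of the mean TPM of control to that of aCSF1R was 5.97.

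Pf4, the neighbour of Ppbp in the cluster and also a platelet granule chemokine, fell in aCSF1R past the threshold. Its TPM was 18.3 to 37.2 in aCSF1R and 128 to 212 in control, a log2 difference of -2.66 (SE 0.40, limma adjusted p 0.0105), and it was higher in BF10 and in IL-10-Fc than in aCSF1R by 2.71 and 2.63. Of 10 platelet markers only Itga2b passed the filter, with differences from control of 0.80 in aCSF1R, 0.45 in IL-10-Fc and 0.076 in BF10 (limma adjusted p 0.893, 0.738 and 0.929), and the summed TPM of the list was 1.91 to 7.04 over all libraries. Its platelet glycoprotein genes Gp9, Gp1ba, Gp1bb, Gp5 and Gp6 did not pass. Pf4 exceeded Ppbp by 41.1-fold to 159-fold in the single libraries.

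**Figure D2:**
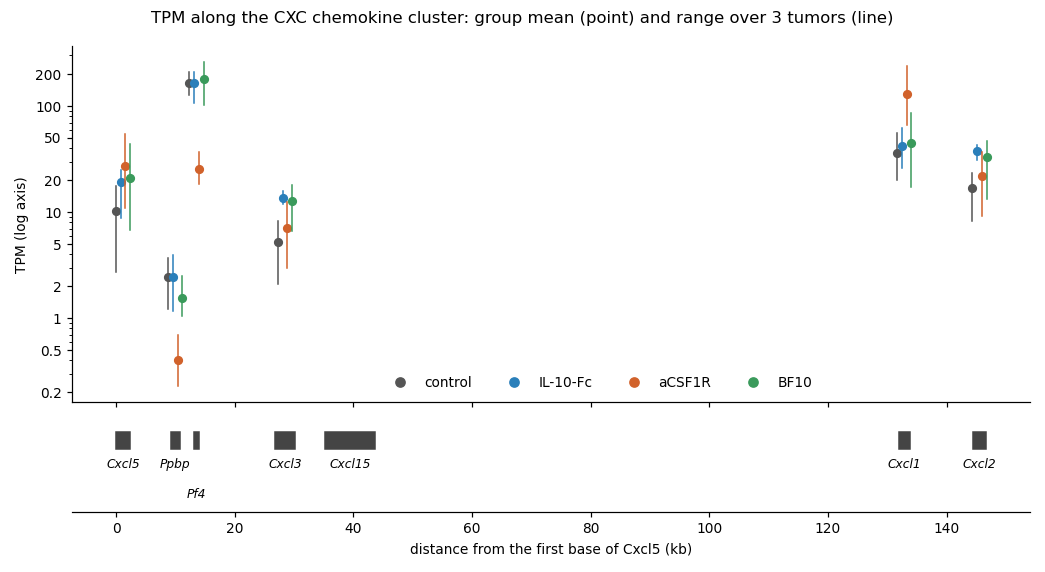
TPM on a log axis along the chemokine cluster, against the distance in kb from the first base of Cxcl5; points are group means over 3 tumors, lines the range, drawn side by side for the 4 groups, and the boxes below are the genes. Ppbp and Pf4, next to each other, have their lowest values in aCSF1R, while Cxcl1 at 131.9 kb has its highest there; Cxcl15 was listed at 0 in 6 of 12 libraries and its levels are not drawn.

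Macrophage markers moved with these groups: 6 of 12 fell in aCSF1R against control past the threshold and 0 rose, with log2 differences of -4.05 for C1qc, -3.98 for C1qa, -3.75 for Msr1, -3.47 for C1qb, -2.96 for Mrc1 and -2.05 for Adgre1. These 6 and Trem2 were higher in BF10 and in IL-10-Fc than in aCSF1R past the threshold. Cd68 differed most from control in the other groups, by 0.95 in IL-10-Fc (limma adjusted p 0.738) and 1.10 in BF10 (limma adjusted p 0.788). The summed TPM of the 12 markers was 132 to 941 in aCSF1R and 2197 to 4174 in the other groups. The part of these cells in the levels of Cxcl1, Csf3, Ppbp and Pf4 was not tested. In bulk tumors fewer cells of a type and less RNA per cell cannot be told apart.

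Cxcr2, the receptor of all 5 ligands, was set apart by 1 BF10 tumor. BF10 replicate 3 had a TPM of 38.09, and replicates 6 and 7 had 0.43 and 3.00. Control replicates 4, 5 and 7 had 0.61, 2.699 and 0.37, IL-10-Fc replicates 2, 4 and 7 had 3.19, 6.28 and 0.92, and aCSF1R replicates 4, 6 and 8 had 5.53, 3.46 and 0.88. All 5 higher-sum libraries lay below 1 and all 7 lower-sum libraries above it, and all groups overlapped. Of all tested genes, 48.8% had every higher-sum library below every lower-sum one.

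The log2 difference of Cxcr2 between BF10 and control was 1.60 (SE 1.04, 95% interval -0.69 to 3.89, limma adjusted p 0.788), and without BF10 replicate 3 it was 0.25. Against aCSF1R and IL-10-Fc the BF10 mean was higher by 0.68 and 0.65 with that library and lower without it, at -0.67 and -0.70. The level in BF10 replicate 3 was 14.1 times the median of the other 11 libraries.

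Csf3, the G-CSF gene, had the highest TPM of the 8 genes in each library except BF10 replicate 3 and was highest in aCSF1R. Its TPM was 131, 124 and 320 in aCSF1R replicates 4, 6 and 8, and 110, 53.9 and 73.0 in control replicates 4, 5 and 7. It was 91.6, 63.8 and 109 in IL-10-Fc replicates 2, 4 and 7, and 19.0, 67.6 and 151 in BF10 replicates 3, 6 and 7. As for Cxcl1, the aCSF1R values did not overlap those of control or IL-10-Fc, and BF10 held both the lowest library and a value above 2 of the 3 aCSF1R tumors.

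Csf3 differed between aCSF1R and control by 1.19 on the log2 scale (SE 0.65, 95% interval -0.24 to 2.61, limma adjusted p 0.893), and by 1.43 with the library set as a term (limma adjusted p 0.525). Without aCSF1R replicate 8 the difference was 0.75, the lowest when 1 library was left out, and the highest was 1.45. Between BF10 and aCSF1R it differed by -1.56 (SE 0.65, limma adjusted p 1), and by -0.77 without BF10 replicate 3. The differences of BF10 and IL-10-Fc from control were -0.37 and 0.18, and the sign of the latter turned with the scaling (-0.25 with the median of ratios).

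Csf3r, the G-CSF receptor gene, showed the pattern of Cxcr2 at higher levels. Its TPM was 110, 2.56 and 17.1 in BF10 replicates 3, 6 and 7, and 2.82, 14.01 and 2.96 in control replicates 4, 5 and 7. It was 16.8, 22.8 and 6.91 in IL-10-Fc replicates 2, 4 and 7, and 21.9, 15.1 and 3.84 in aCSF1R replicates 4, 6 and 8. BF10 replicate 3 was highest, at 7.88 times the median of the other 11, and all higher-sum libraries lay below all lower-sum ones. Between BF10 and control the log2 difference was 1.66 (SE 1.11, limma adjusted p 0.788), and 0.39 without BF10 replicate 3.

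**Figure D3:**
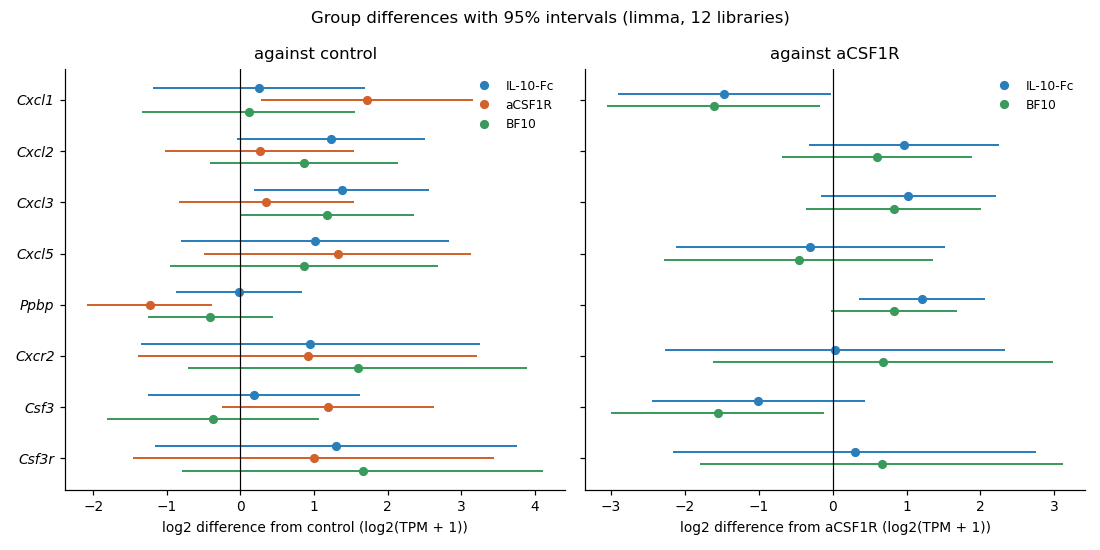
Differences between group means on the log2(TPM + 1) scale with 95% intervals from limma, against control (left) and against aCSF1R (right), for each of the 8 genes. The intervals of Cxcr2 and Csf3r are the widest, and those of Cxcl1 and Ppbp for aCSF1R against control do not reach 0 although neither difference passed the adjusted threshold.

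Counted over the 8 genes, groups did not overlap for 3 in aCSF1R against control (Cxcl1 and Csf3 higher, Ppbp lower), where 5.28% of all tested genes did not overlap. The count was 2 for IL-10-Fc against control (Cxcl2 and Cxcl3, background 6.53%), 3 for IL-10-Fc against aCSF1R (Cxcl1 and Csf3 lower, Ppbp higher, background 7.49%) and 1 for BF10 against aCSF1R (Ppbp, background 5.91%). It was 0 for BF10 against control (background 3.53%) and for BF10 against IL-10-Fc (background 2.13%). The median log2 difference of the 8 genes from control was 0.96 in aCSF1R, 0.86 in BF10 and 0.98 in IL-10-Fc, each above the median of all genes. With the library set as a term these medians were 0.27, 0.71 and 0.54, beside 0.0068, 0.068 and 0.10 for all genes. Without BF10 replicate 3, and without that term, the BF10 median was 0.40, beside 0.20 for all genes.

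The count of the 8 genes that differed between the library sets was near the share of all tested genes. With the treatment groups held in the model, 4 of the 8 genes were lower in the higher-sum libraries past the threshold and 0 higher, where 54% of all tested genes were lower and 5.23% higher, with a median of -0.68. The log2 difference was -2.24 for Csf3r (SE 0.45, limma adjusted p 0.000976), -1.87 for Cxcr2 (SE 0.52, limma adjusted p 0.00677), -0.96 for Cxcl2 (limma adjusted p 0.0125) and -0.94 for Cxcl3 (limma adjusted p 0.00531). Relative to the median of all genes these 4 values were -1.56, -1.19, -0.28 and -0.25. Cxcl1 and Csf3 did not pass the threshold, at 0.82 and 0.71 in the higher-sum libraries. The mitochondrial and ribosomal protein shares, also higher in these libraries, move with the library sets, and their part in these differences was not tested.

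Cxcr2 and Csf3r are neutrophil genes, so each gene was set against the mean log2(TPM + 1) of the 18 neutrophil markers. This was done within the 7 lower-sum libraries, as the other set had fewer than 6. The 7 held 2 libraries of each treated group and 1 of control. Levels were not centred by group, so differences between groups enter r, rho and their p-values. Pearson's r was 0.975 for Csf3r (exact permutation test, adjusted over 8 genes, p = 0.0238), 0.967 for Cxcr2 (exact permutation, adjusted p = 0.0356) and 0.920 for Cxcl5 (exact permutation, adjusted p = 0.0325). It was 0.719 for Cxcl3 (exact permutation, adjusted p = 0.0159) and 0.571 for Cxcl2 (exact permutation, adjusted p = 0.0325). Spearman's rho was 0.964 for Csf3r and 0.893 for Cxcl3 (exact permutation, adjusted p = 0.0222 and 0.0492), and did not pass for Cxcr2 (0.750), Cxcl5 (0.857) and Cxcl2 (0.714), at exact permutation adjusted p of 0.133, 0.0635 and 0.141.

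The other 3 genes did not pass by r or by rho: r was 0.462 for Ppbp, -0.653 for Cxcl1 and -0.869 for Csf3 (exact permutation, adjusted p = 0.313, 0.0762 and 0.0762), and rho was 0.179, -0.536 and -0.286 (exact permutation, adjusted p = 0.713, 0.314 and 0.635). In BF10 replicate 3 the mean level of the neutrophil markers was highest and Csf3 and Cxcl1 were lowest. Not every marker was highest there. Padi4 had a TPM of 143 in it and 42.8 to 349 in the other libraries, and Il1r2 had 43.0 and 13.3 to 44.5. Without BF10 replicate 3 none of the 8 passed, with r of 0.774 for Csf3r, 0.694 for Cxcr2, 0.786 for Cxcl5, 0.840 for Cxcl3 and 0.626 for Cxcl2 (exact permutation, lowest adjusted p = 0.111, n = 6). Without the 2 libraries farthest from the median level of the markers, BF10 replicate 3 and IL-10-Fc replicate 4, r was 0.576 for Csf3r, 0.233 for Cxcr2, 0.329 for Cxcl5, 0.918 for Cxcl3, 0.752 for Cxcl2 and 0.00868 for Csf3. By r, the relation of Csf3r, Cxcr2 and Cxcl5 with the markers thus rests on those 2 libraries in its size. For Cxcl3 and Cxcl2 r was higher without them. In the same 5 libraries rho was 0.9 for Csf3r, 0.3 for Cxcr2, 0.6 for Cxcl5, 0.7 for Cxcl3 and 0.5 for Cxcl2. None of these genes passed by r or by rho there. With n = 5 a gene on its own cannot pass the adjusted permutation test, so not passing does not show that a relation is lost.

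**Figure D4:**
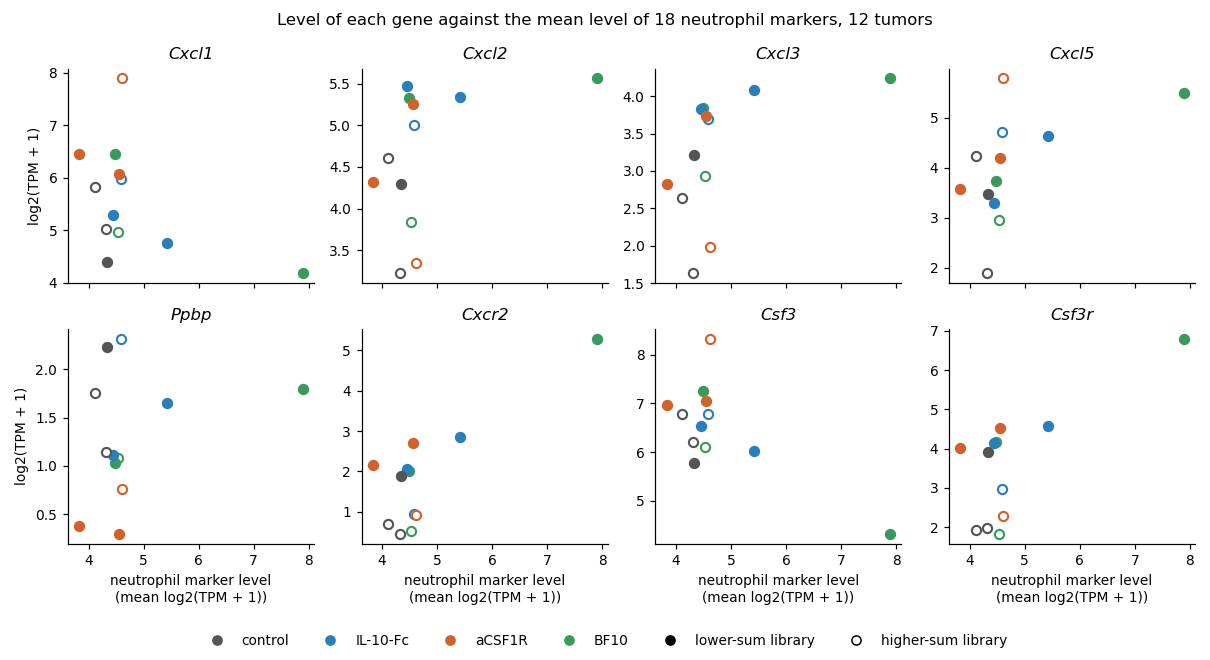
Level of each gene, as log2(TPM + 1), against the mean log2(TPM + 1) of 18 neutrophil markers in the 12 tumors, with groups by colour and higher-sum libraries as open points. BF10 replicate 3 lies alone at the right, highest for Cxcr2 and Csf3r and lowest for Cxcl1 and Csf3.

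Pairs of the 8 genes were compared in the same 7 libraries, a family of 28 relations chosen after the data were seen. Here too levels were not centred by group, so a relation between tumors cannot be told apart from differences between groups. Csf3 and Cxcl1, on different chromosomes, rose and fell together with r = 0.898 and rho = 0.893 (exact permutation, adjusted p = 0.0444 and 0.0952). Without BF10 replicate 3 the r was 0.976, and without the 2 libraries farthest from the median of Cxcl1 it was 0.885. The ratio of Csf3 to Cxcl1 in TPM was 1.11 to 2.698 over all 12 libraries, lowest in BF10 replicate 3, while Cxcl1 itself ranged 13.9-fold.

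Cxcr2 and Csf3r had r = 0.993 and rho = 0.857 (exact permutation, adjusted p = 0.0472 and 0.0952), and r = 0.937 without BF10 replicate 3. Cxcl5 had r = 0.938 with Cxcr2 and 0.913 with Csf3r (exact permutation, adjusted p = 0.0472 for both), and 0.923 and 0.886 without that library. Cxcl2 and Cxcl3 had r = 0.937 and Cxcl1 and Ppbp r = -0.881 (exact permutation, adjusted p = 0.05 for both, not below the threshold). The ratio of Csf3r to Cxcr2 in TPM was 2.90 to 8.09 and that of Cxcl2 to Cxcl3 2.00 to 4.48. By rho no pair passed, and without BF10 replicate 3 no pair passed by r (exact permutation, lowest adjusted p = 0.211).

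**Figure D5:**
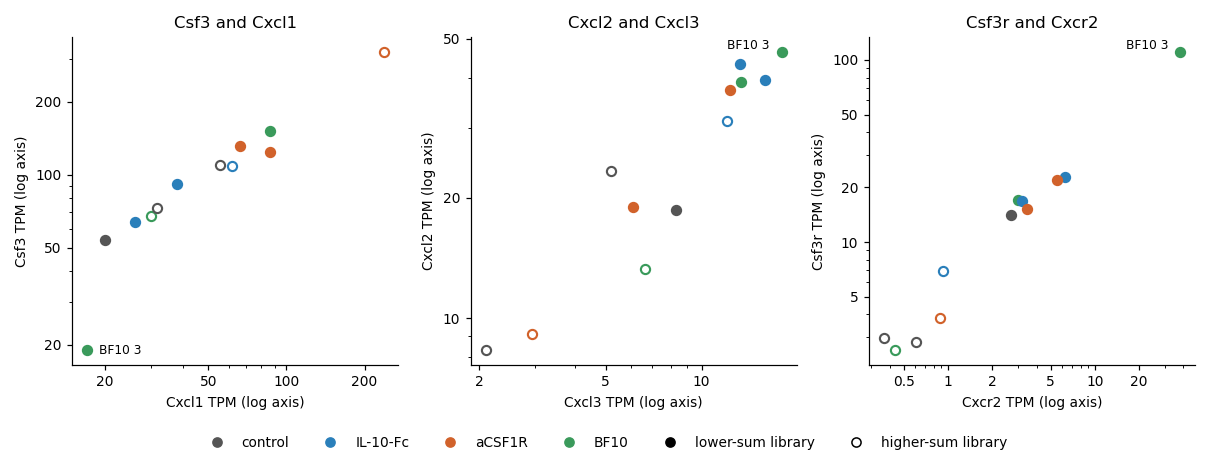
TPM of 3 pairs of genes on log axes, 1 point for each of the 12 tumors, with groups by colour and higher-sum libraries as open points. Csf3 follows Cxcl1 across both sets of libraries, with BF10 replicate 3 lowest and aCSF1R replicate 8 highest, and Csf3r with Cxcr2 runs from the higher-sum libraries up to BF10 replicate 3.

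Among genes with a mean TPM of at least 5, those most like each of the 8 were found by Pearson's r over the 12 libraries, centred within the library sets. For Cxcl1 they were Sp140 (r = 0.931), Csf3 (0.926) and Kansl1l (0.915), and for Csf3 they were Clip4 (0.949), Rnf11 (0.934) and Slc25a14 (0.930). For Cxcr2 they were Serpinb1a (0.969), Cd177 (0.969) and Ly6g (0.964), and for Csf3r they were Cxcr2 (0.960), Mxd1 (0.940) and Asprv1 (0.937). Cd177 and Ly6g encode surface proteins of neutrophils. Like Cxcr2 and Csf3r, both were highest in BF10 replicate 3. Cd177 had a TPM of 99.6 there and at most 7.40 elsewhere, and Ly6g had 74.8 and at most 5.04. No r was computed without that library, so how far these values rest on it was not tested.

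For Cxcl2 the most alike were Manf (0.909), Anp32a (0.903) and Cxcl3 (0.900), and for Cxcl3 they were Manf (0.956), Vdac2 (0.954) and Slc25a5 (0.952). For Cxcl5 they were Dstn (0.891), Pigk (0.878) and Mmp3 (0.869), and for Ppbp they were Nudt8 (0.961), Uqcr11 (0.880) and Brk1 (0.876). These values describe 12 libraries and were picked from many genes, so no test goes with them.

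The genes around the axis were taken from lists. Of 7 chemokine partners (Cxcl12 and its receptors Cxcr4 and Ackr3, Pf4, Cxcl15, the chemokine-binding Ackr1, and Cxcr1, the other neutrophil chemokine receptor) 5 passed the filter, and Pf4 alone passed the threshold. Cxcr1 had a TPM of 1.36 in BF10 replicate 3 and at most 0.36 elsewhere, and was not tested. Cxcl12, made by stromal cells, had a TPM of 184 in BF10 replicate 3 and of 9.97 to 100.0 in the other libraries, a difference of 0.50 between BF10 and control (SE 0.83, limma adjusted p 0.793) that was -0.49 without that library, and of 0.87 between IL-10-Fc and control (limma adjusted p 0.738).

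Of 19 inducers, the cytokines and regulators known to raise these chemokines and Csf3, 17 passed the filter and 0 passed the threshold in any comparison by limma, with 4 at an unadjusted p below 0.05 in at least 1 comparison. The share of all tested genes by that last rule was not counted, so the 4 have no background. Il1a, which codes for interleukin-1 alpha, came nearest, with a TPM of 3.05 to 4.80 in aCSF1R and 8.35 to 21.2 in control, a log2 difference of -1.55 (SE 0.34, limma adjusted p 0.113). It passed in the model with the set term, at -1.40 (limma adjusted p 0.0105), and Nfkbiz, a cofactor of NF-kB, was higher in aCSF1R by 0.90 (limma adjusted p 0.0406). In that model 2 of the 17 were higher in BF10 and 2 in IL-10-Fc than in aCSF1R, where 2.82% and 2.13% of all tested genes passed. Il1b had 54.7 to 100.4 in aCSF1R and 65.3 to 260 in control. Csf2, the gene of the related factor GM-CSF, had a TPM of 4.65 to 7.08 in control, 2.40 to 3.14 in IL-10-Fc, 1.62 to 3.33 in aCSF1R and 1.00 to 5.22 in BF10. The IL-10-Fc and aCSF1R values lay below those of control and the BF10 values overlapped them. The log2 differences from control were -0.87, -1.09 and -1.15 (SE 0.40 each), with limma adjusted p of 0.738, 0.893 and 0.788. Nfkb1 differed by 0.96 between IL-10-Fc and control (limma adjusted p 0.738). Il17a was listed at 0 in all 12 libraries.

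Of 17 genes that carry the signal of CXCR2 inside the cell, 0 passed the threshold in any comparison by limma, with 8 at an unadjusted p below 0.05 in at least 1. No share of all tested genes was counted by that last rule, so the 8 have no background. With the library set as a term, 8 of the 17 were higher in BF10 and 6 in IL-10-Fc than in aCSF1R and 0 lower, where 2.82% and 2.13% of all tested genes passed. In that model 5 of the 17 were lower in aCSF1R than in control and 0 higher, where 2.01% of all tested genes passed. Among the 5, the log2 differences were -1.56 for Arrb2, -1.24 for Pik3cg, -1.29 for Plcb2 and -1.81 for Vav1, at limma adjusted p of 0.00356 to 0.0474. Macrophage markers fell in the same comparison, and their part in these values was not tested. Rac2 differed by 1.24 between BF10 and control and Plcb3 by 0.95 between IL-10-Fc and control, with limma adjusted p of 0.788 and 0.738.

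Of 18 genes of G-CSF receptor signalling 17 passed the filter and 1 passed the threshold. Bcl2a1b, a member of the A1 family of survival genes, had a log2 difference of -3.37 between aCSF1R and control (SE 0.40, limma adjusted p 0.00259) and higher in BF10 and IL-10-Fc than in aCSF1R by 2.95 and 2.77. It has near-identical copies in the genome, so its share of reads is uncertain. With the library set as a term, 3 of the 17 genes were higher in BF10 and 2 in IL-10-Fc than in aCSF1R, where 2.82% and 2.13% of all tested genes passed. Cebpe, a transcription factor of maturing granulocytes, differed by 1.24 between BF10 and control (SE 0.68, limma adjusted p 0.788), with a TPM of 17.3 in BF10 replicate 3 and 0.34 to 1.60 elsewhere, and by 0.22 without that library.

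The 18 neutrophil markers gave 0 genes past the threshold by limma in any comparison and 4 at an unadjusted p below 0.05 in at least 1. The share of all tested genes by the latter rule was not counted, so the 4 have no background. With the library set as a term, 1 of the 18 was lower in aCSF1R than in control, where 2.01% of all tested genes passed. In that model 1 was higher in BF10 and 1 in IL-10-Fc than in aCSF1R, where 2.82% and 2.13% passed. All 18 had a higher mean in BF10 than in control, as had 77.5% of all tested genes, and the median log2 difference of the 18 was 1.24. Without BF10 replicate 3 the BF10 mean was higher for 13 and lower for 5, where 75% of all tested genes were higher, and the median was 0.32. Ngp, a granule protein of immature neutrophils, differed most, by 2.95 (SE 1.35, limma adjusted p 0.788), with a TPM of 1573 in BF10 replicate 3 and 7.00 to 69.0 elsewhere, and by 0.98 without that library. S100a8, a calcium-binding protein abundant in neutrophils, had 6522 in that library and 143 to 1363 elsewhere, and its difference between BF10 and control without it was -0.29. Mmp9, a gelatinase of neutrophil granules, differed most between IL-10-Fc and control, by 1.91, and Lcn2 between aCSF1R and control, by 1.13, with limma adjusted p of 0.738 and 0.893. Of 8 monocyte markers 1 passed, as Ccr2 differed by -2.57 between aCSF1R and control (SE 0.27, limma adjusted p 0.00137). With the library set as a term, 2 of the 8 were lower in aCSF1R than in control, where 2.01% of all tested genes passed. Chil3 differed by 1.284 between BF10 and control and Vcan by 0.85 between IL-10-Fc and control, and neither passed (limma adjusted p 0.788 and 0.738). The 8 epithelial, 8 fibroblast and 8 endothelial markers gave 0 past the threshold by limma in any comparison, and 0 at an unadjusted p below 0.05. The largest differences from control in BF10, IL-10-Fc and aCSF1R were 1.13 for Krt5, 1.41 for Krt14 and 1.02 for Cdh1 among the epithelial, 1.56 for Col1a1, 1.90 for Col1a1 and 0.84 for Pdgfra among the fibroblast, and 0.67 for Cdh5, 1.09 for Cdh5 and 0.43 for Pecam1 among the endothelial markers.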

How the data were processed

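Gene expression was measured by RNA-seq in 12 tumors, with reads of 75 bases. FPKM values with 2 decimals were deposited by the authors as 1 table of 55401 genes; per the submitters' processing notes STAR 2.7.5a, RSEM 1.3.3 and DESeq2 1.28.0 were used, on mm10 with Ensembl annotation. The authors' comparison tables, which hold log2 fold changes, standard errors, p-values and a test score, were not used. Every table column matched a sample, with 0 left over.

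FPKM was rescaled in each library to TPM, and log2(TPM + 1) was tested with limma 3.58.1 (R 4.3.3), with 4 group means, 8 residual degrees of freedom and a trend in the prior, on 15504 genes with a TPM of 1 or more in 3 or more libraries. A gene was called at a Benjamini-Hochberg adjusted p below 0.05 and 1.5-fold; fold changes of low genes are understated by the pseudocount. The test was checked on simulated data whose spread was capped below that of the 8 genes, with no library sets. The check thus does not cover the spread of these genes. Correlations had exact two-sided permutation tests (scipy 1.17.1), with the smaller tail doubled, within the 7 lower-sum libraries. Libraries were permuted freely across the groups, without centring by group.

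The 8 genes and the gene lists were chosen with earlier results of these data known. The genes named were all 8 and the 3 most alike to each. By rule, each list gave those past the threshold and those with the largest difference in each comparison. The latter are printed for the comparisons with control. Other genes of the lists, among them Il1b, Cxcr1, S100a8, S100a9, Padi4, Il1r2, Il17a and those past the threshold with the set term, were named after their values were seen. The values of 2 listed genes are not reported here. Alternatives were a pseudocount of 0.1, no filter, FPKM as deposited, the median of ratios, the library set as a term, a replicate block, a fit of only the groups compared and leaving out each library; the lists without BF10 replicate 3 were added after seeing the data.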

Additional observations from a re-analysis of the deposited data

How the results depend on the processing

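No gene of the axis passed the threshold under any alternative, so the values here are log2 differences whose sign turned, all from limma. With FPKM as deposited these were Cxcl1 -0.074 (BF10/control), Csf3 -0.031 (IL-10-Fc/control), and with the median of ratios Cxcl1 -0.26 (BF10/control), Cxcl1 -0.18, Csf3 -0.25 (IL-10-Fc/control), Cxcr2 -0.066 (IL-10-Fc/aCSF1R). With the library set as a term they were Ppbp 0.0023 (IL-10-Fc/control), Cxcl2 -0.057 (aCSF1R/control). With that term and without BF10 replicate 3, a setting chosen after seeing the data, they were Csf3 0.49 (BF10/control), Ppbp 0.037 (IL-10-Fc/control), Cxcl2 -0.035 (aCSF1R/control), Cxcl1 0.25, Cxcr2 -0.45, Csf3 0.16, Csf3r -0.59 (BF10/IL-10-Fc), Cxcr2 -0.42, Csf3r -0.28 (BF10/aCSF1R). The cause was not tested.

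With a replicate block the turned values were Csf3 0.41 (BF10/control), Cxcl1 -0.063, Ppbp 0.53, Csf3 -0.10 (IL-10-Fc/control), Cxcl1 0.48, Cxcl2 0.16, Cxcl3 0.091, Csf3 0.51, Csf3r -0.00092 (BF10/IL-10-Fc), Cxcr2 -0.83, Csf3r -1.14 (BF10/aCSF1R), Cxcl2 -0.077, Cxcl5 0.66, Cxcr2 -0.87, Csf3r -1.14 (IL-10-Fc/aCSF1R). The samples share only a number. Of the 7 same-numbered pairs, those within a library set had correlations of deviations of 0.417 and 0.349, and those across sets of -0.663 to -0.26. These correlations follow the library sets, so they do not tell whether the numbers pair the samples. The replicate block gave 0 of the 8 genes past the threshold, as did the fit without it.

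Leaving out 1 library at a time, the differences that turned ranged over Csf3 -1.23 to 0.23, Csf3r -0.90 to 1.58, Cxcl1 -0.77 to 0.36, Cxcl2 -0.69 to 0.17, Cxcl3 -0.48 to 0.17, Cxcl5 -0.87 to 0.40, Cxcr2 -0.70 to 1.69 (BF10/IL-10-Fc), Csf3 -1.05 to 0.41, Cxcl1 -0.52 to 0.62 (BF10/control), Csf3 -0.056 to 0.45, Cxcl1 -0.090 to 0.63, Ppbp -0.33 to 0.27 (IL-10-Fc/control), Csf3r -0.60 to 1.89, Cxcl5 -1.18 to 0.17, Cxcr2 -0.67 to 1.72 (BF10/aCSF1R), Csf3r -0.36 to 0.76, Cxcl5 -0.78 to 0.33, Cxcr2 -0.48 to 0.54 (IL-10-Fc/aCSF1R), Cxcl2 -0.21 to 0.75, Cxcl3 -0.093 to 0.79 (aCSF1R/control).

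For the level against the neutrophil markers, leaving out the 2 farthest libraries left 5, too few for a gene on its own to pass. There r did not pass for Cxcl2 (0.752), Cxcl3 (0.918), Cxcl5 (0.329), Cxcr2 (0.233) and Csf3r (0.576), and turned for Csf3 (0.00868). Without BF10 replicate 3 no gene passed, with r of 0.774 for Csf3r, 0.694 for Cxcr2, 0.786 for Cxcl5, 0.840 for Cxcl3 and 0.626 for Cxcl2. With p counted from the absolute correlation, chosen after seeing the data, Cxcl2 (r = 0.571, exact permutation adjusted p = 0.193) and Cxcl3 (r = 0.719, exact permutation adjusted p = 0.0931) did not pass, and Csf3r, Cxcr2 and Cxcl5 did. With 3 tumors a group and 8 residual degrees of freedom the intervals are wide. Ppbp in aCSF1R rests on few reads, an estimated 5.01 to 19.9 per library.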
